A study of Mus musculus with 12 samples.

Results

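The mouse liver count tables held 66 genes named as initiation factors Eif1 to Eif6 or elongation factors Eef1 and Eef2. The members described here are those matched by name, without the Y-linked Eif2s3y and with at least 10 reads summed over the 12 libraries, which left out Eif4e1b at 0 reads. This gave 64 members of 22609 genes. Of these, 63 were among the 13684 genes with enough reads to be tested, and Eef1a2, with 11 reads in all, was not. Liver RNA came from 12 untreated adult mice, 3 per genotype. WT mice carried no transgene, AEG1 mice carried Alb/AEG-1, MYC mice carried Alb/c-Myc, and AEG1_MYC mice carried Alb/AEG-1 together with Alb/c-Myc. All came from crosses of heterozygous carriers. AEG-1 is encoded by the gene Mtdh. The transcription factor c-Myc drives cell growth. The albumin promoter of the Alb lines acts in hepatocytes, while whole liver was sequenced, so that other liver cells contribute RNA. The labels give no sex, litter or age beyond adult, and name no batch.

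Translation begins when eIF4E binds the cap of an mRNA and, with the scaffold eIF4G and the helicase eIF4A, draws in a small ribosomal subunit that carries eIF3, eIF1, eIF1A, eIF5 and the initiator tRNA bound to eIF2. The nucleotide exchange factor eIF2B reloads eIF2, and stress-activated kinases stop that step by phosphorylating eIF2. During elongation eEF1A delivers aminoacyl-tRNA, the eEF1B complex recharges eEF1A with GTP, and eEF2 moves the ribosome along. The mRNAs of the elongation factors, several eIF3 subunits and Eif4b belong to the TOP class, which begins with a terminal oligopyrimidine tract and whose translation is controlled by mTORC1. Ribosome production and translation factors are among the long-known targets of c-Myc, which binds E-boxes with its partner Max.

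Promoter sequences are shown first, because the clearest differences below separate mice with and without the c-Myc transgene. RefSeq promoters of build GRCm38.p6, from 250 bases before to 50 bases after the start, were matched for 51 of the 64 members. The canonical E-box CACGTG reads the same on both strands. It was present for 12 of the 51 members (23.5%) and for 1241 of 10779 tested genes with a promoter (11.5%). A gene with several starts had a window for each and was counted if any of them held the motif. Among the 12, Eif5a had 6 starts, Eef2k 3 and Eif4e 2, so genes were not searched over equal lengths. A match of these letters is a description and shows no binding. The 100 bases before the start are printed for 3 members that hold the motif and stood higher in MYC carriers (Eef2, Eif3f and Eif3k), for 3 that stood higher without it in the 300-base window (Eef1b2, Eef1a1 and Eif4b), and for Eif4g1, which holds it and did not stand higher. Sequences run 5′ to 3′ on the gene's strand, and capitals mark CACGTG.
Eef2 chr10:81176531-81176630 plus strand: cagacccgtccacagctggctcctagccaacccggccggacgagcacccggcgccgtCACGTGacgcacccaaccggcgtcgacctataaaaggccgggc
Eif3f chr7:108934315-108934414 plus strand: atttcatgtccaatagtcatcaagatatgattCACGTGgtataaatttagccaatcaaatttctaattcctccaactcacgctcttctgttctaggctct
Eif3k chr7:28981889-28981988 minus strand: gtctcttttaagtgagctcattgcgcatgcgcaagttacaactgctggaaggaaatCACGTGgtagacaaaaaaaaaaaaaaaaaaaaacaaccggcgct
Eef1b2 chr1:63176731-63176830 plus strand: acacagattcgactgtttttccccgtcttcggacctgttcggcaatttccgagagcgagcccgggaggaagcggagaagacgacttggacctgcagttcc
Eef1a1 chr9:78481725-78481824 minus strand: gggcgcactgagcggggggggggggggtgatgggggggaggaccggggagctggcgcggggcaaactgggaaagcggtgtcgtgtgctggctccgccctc
Eif4b chr15:102073673-102073772 plus strand: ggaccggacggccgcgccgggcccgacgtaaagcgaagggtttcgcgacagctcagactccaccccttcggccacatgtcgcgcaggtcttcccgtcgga
Eif4g1 chr16:20672627-20672726 plus strand: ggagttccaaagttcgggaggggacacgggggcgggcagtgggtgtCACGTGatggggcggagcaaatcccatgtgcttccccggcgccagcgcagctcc
In Eef2 the motif began 43 bases before the start, in Eif3k 44, in Eif4g1 54 and in Eif3f 68. Eif4g1 held a further copy elsewhere in its 300 bases, 2 in all. Among the members at an unadjusted p under 0.05 in MYC carriers, described below, 4 of 9 with a promoter held the motif (44.4%), against 8 of 41 other tested members (19.5%). One of these 4 was Eif5a, with its 6 starts.

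The libraries held 21931197 to 40552316 reads in genes, and the members took 0.660% to 1.04% of them. This share was 0.660% to 0.739% in WT, 0.704% to 0.742% in AEG1, 0.797% to 0.865% in MYC and 0.811% to 1.04% in AEG1_MYC mice. These are shares of raw reads, before the TMM scaling used for the CPM values below. Its factors ran from 0.914 in WT replicate 2 to 1.19 in AEG1_MYC replicate 2. On scaled values c-Myc carriers and non-carriers overlapped, with WT replicate 2 among the carriers and the other non-carriers below all of them. Myc itself stood at 2.26 to 4.73 CPM (reads of a gene at an equal depth, after TMM scaling of the libraries) in WT and AEG1, 23.4 to 53.8 in MYC and 58.4 to 165 in AEG1_MYC. Mtdh stood at 89.0 to 112 CPM in all 12 libraries, with AEG-1 carriers and the other mice overlapping, so the Mtdh counts do not check the AEG1 labels. AEG1_MYC replicates 1 and 2 stood apart from the rest, with a mean correlation of 0.955 and 0.923 to the other libraries against 0.968 to 0.972. The 9 hepatocyte markers, all tested, summed to 106283 to 113883 CPM in WT, 82408 to 92338 in AEG1, 69862 to 87565 in MYC and 34405 to 74801 in AEG1_MYC. The 6 markers of proliferating cells, all tested, summed to 3.71 to 15.5, 4.68 to 14.1, 9.57 to 13.9 and 25.4 to 53.9 CPM in the same order. In whole liver, fewer cells of a type and less RNA per cell cannot be told apart. The part of these markers in the results below was not tested. No marker of either list was at 0 in all libraries. In the comparison of c-Myc carriers with non-carriers no marker of any list passed the adjusted threshold by edgeR. At an unadjusted p under 0.05 there, 6.53% of all genes were higher and 4.55% lower. At that level 5 of 6 markers of proliferating cells were higher, and 2 of 9 of hepatocytes, 2 of 7 of endothelial cells and 4 of 8 of stellate cells were lower. In the same comparison 1 other stellate marker, 1 of 8 markers of Kupffer cells and macrophages and the 2 tested neutrophil markers were higher, and the 1 tested erythroid marker was lower. The 8 stellate markers summed to 323 to 396 CPM in WT, 430 to 553 in AEG1, 274 to 419 in MYC and 243 to 290 in AEG1_MYC mice. The neutrophil markers summed to 52.0 CPM in AEG1_MYC replicate 1 and at most 3.57 elsewhere.

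In WT liver Eef1a1 and Eef2 were the most abundant members per length. Per kilobase of the longest coding transcript, Eef1a1 stood at 528 ± 40.2 CPM and Eef2 at 410 ± 33.4 CPM (SD, n = 3). Eif5a followed at 134 ± 6.12, Eif4g1 at 129 ± 9.74, Eif4g2 at 91.7 ± 11.2 and Eif4a2 at 87.6 ± 6.07 CPM per kilobase. The neighbours Eif5a and Eif4g1, and Eif4g2 and Eif4a2, did not differ beyond their spread. The subunits of the eIF3 complex lay close together: the 8 of 13 with under 10% of their 50-base words shared with other genes stood at 29.6 to 50.3 CPM per kilobase. The cap-binding protein Eif4e was far lower, at 5.09 ± 0.576 CPM per kilobase. Tissue-restricted paralogues were near 0: Eef1a2, the muscle and neuron form of eEF1A, reached 0.00612 and Eif5a2 reached 0.119 CPM per kilobase. Eef1a1, Eif4a1, Eef1g, Eif3j and Eif4ebp3 shared over 50% of their words with other genes, many of them pseudogenes. The tables count reads aligned at a single place, so the levels of these 5 are uncertain.

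**Figure D1:**
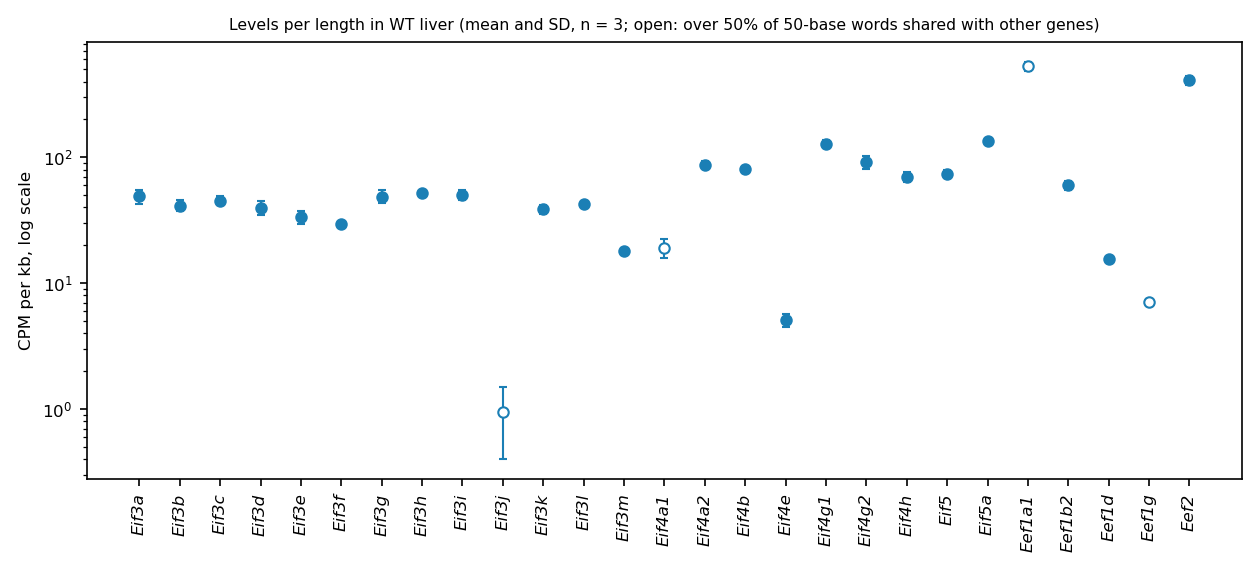
Mean WT level of the eIF3 subunits and other abundant or central members in CPM per kilobase of transcript, on a log axis, with SD over 3 mice. Eef1a1 (528) and Eef2 (410) lie highest and Eif3j (0.948) lowest, and open points mark genes with over 50% of their sequence words shared with other genes.

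No member passed an adjusted p of 0.05 in any of the 8 comparisons by the edgeR quasi-likelihood test with Benjamini-Hochberg adjustment over all genes. The c-Myc effect averaged over both backgrounds, 6 mice that carry c-Myc against 6 that do not, gave 15 members at an unadjusted p under 0.05. All 15 were higher in carriers, 23.8% of the 63 tested, and 0 were lower, against 6.53% and 4.55% of all genes tested. In that comparison 0 of 63 members and 0.11% of all genes passed the adjusted threshold, while DESeq2 passed Eef1b2, Eef1d, Eef1g, Eef2, Eif3h and Eif4ebp1, and limma-voom passed Eef1b2. DESeq2 called 305 genes in all there (2.23%) and limma-voom 39 (0.285%). Without AEG1_MYC replicate 3 edgeR passed Eef1b2 and Eef1d among 138 genes (0.993%). A positive log2 difference was found for 44 of 63 members (50.6% of all genes), with a median of 0.07 against 0.00 over all genes. Leaving out single libraries moved the members' median between 0.061 and 0.124, the highest without AEG1_MYC replicate 3. The 15 members were Eef1b2, Eef1d, Eif3h, Eef1g, Eef2, Eif4ebp1, Eif3e, Eif2d, Eif6, Eef1a1, Eif5a, Eif3f, Eif4b, Eif2a and Eif3k. Without AEG1_MYC replicates 1 and 2, which leaves replicate 3 alone in its group, the median over all members was 0.05 against -0.01 over all genes.

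**Figure D2:**
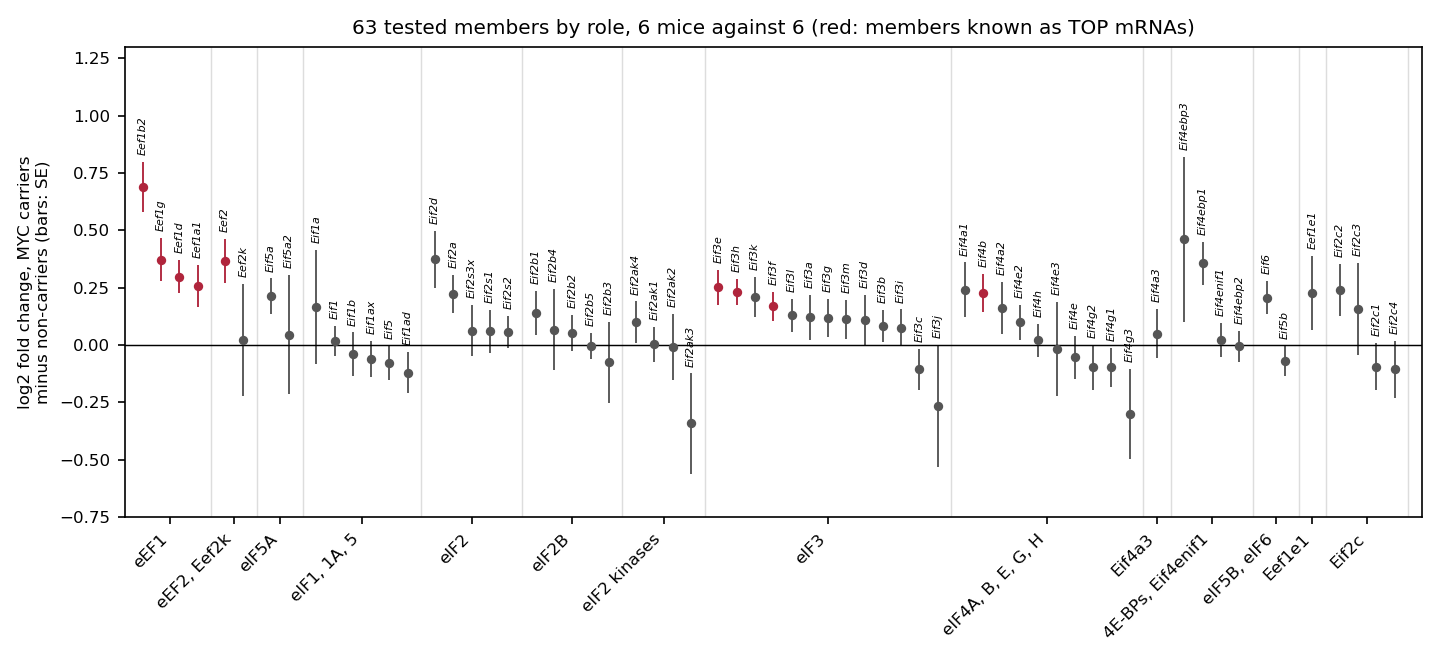
Log2 fold change of each of the 63 tested members between mice with and without the c-Myc transgene, ordered by role, with SE bars and 6 mice per side. The 4 eEF1 members and Eef2 lie at 0.26 to 0.69, while the start-site factors and eIF2B subunits lie on both sides of 0. Red points are members known as TOP mRNAs, a list drawn up after values had been seen.

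All 4 tested members of the eEF1 complex were higher in c-Myc carriers at an unadjusted p under 0.05, as were 6.53% of all genes. Eef1b2, the nucleotide exchange subunit of eEF1B, stood at 122, 123 and 105 CPM in WT and 112, 118 and 129 CPM in AEG1 mice. It stood at 168, 209 and 178 CPM in MYC and 159.9, 245 and 185 CPM in AEG1_MYC mice. Every c-Myc carrier was above every non-carrier. The log2 difference was 0.69 ± 0.11 (SE), with an adjusted p of 0.0501 by the edgeR quasi-likelihood test. This value lies at the threshold, and several alternatives place it on the other side. The adjusted p was 0.0487 with a filter of CPM of at least 1, 0.0326 with limma-voom and 8.2e-06 with DESeq2. Leaving out AEG1_MYC replicate 1, 2 or 3 gave an adjusted p of 0.0220, 0.0360 or 0.0382 in the edgeR test, which then called 38, 25 or 138 genes in all. The CPM filter called 21. Without replicates 1 and 2 together the difference was 0.65 with an adjusted p of 0.0617. Over all alternatives the adjusted p ran up to 0.175.

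The other eEF1 members stood higher in the same mice with smaller differences. Eef1d, another exchange subunit of eEF1B, stood at 43.7, 46.4 and 43.6 CPM in WT and 43.2, 40.6 and 44.0 in AEG1. It stood at 46.1, 52.5 and 52.7 CPM in MYC and 56.3, 64.5 and 49.9 in AEG1_MYC mice. Only the first MYC mouse fell among the non-carriers, and the difference was 0.30 ± 0.07 on the log2 scale (edgeR adjusted p = 0.170, and 0.0472 without AEG1_MYC replicate 3). Eef1g, the subunit that anchors the complex, stood at 12.7 to 13.9 CPM in the 6 non-carriers. In carriers it stood at 13.5, 19.6 and 16.4 CPM (MYC) and 17.3, 19.7 and 16.5 CPM (AEG1_MYC), again with the first MYC mouse among the non-carriers. Its log2 difference was 0.37 ± 0.09 (edgeR adjusted p = 0.188). Eef1a1, which brings the aminoacyl-tRNA, stood at 918, 1029 and 894 CPM in WT, 896, 961 and 1055 in AEG1, 1109, 1278 and 1095 in MYC and 1035, 1183 and 1173 in AEG1_MYC mice. One AEG1_MYC mouse lay inside the non-carrier range, and the log2 difference was 0.26 ± 0.09 (edgeR adjusted p = 0.353). Eef1a2 had between 0 and 0.105 CPM in every library. Eef1e1, a scaffold protein of the tRNA synthetase complex that shares the symbol stem, stood at 8.93 to 16.1 CPM with overlapping groups.

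Eef2, the translocase, was the most abundant member by reads. It stood at 1281, 1362 and 1157 CPM in WT, 1179, 1270 and 1336 in AEG1, 1466, 1668 and 1529 in MYC, and 1561, 1939 and 1633 in AEG1_MYC mice. The 6 carriers lay above the 6 non-carriers without overlap, which held for 2 members in this direction, Eef1b2 and Eef2 (0.687% of all genes), and for 0 in the other (0.395%). The log2 difference was 0.37 ± 0.10 (edgeR adjusted p = 0.206), and 0.34 without AEG1_MYC replicates 1 and 2. Eef2k, the kinase that inactivates eEF2, did not follow it. It stood at 14.0, 9.69 and 12 CPM in WT, 8.42, 7.47 and 15.0 in AEG1, 9.05, 9.53 and 18.3 in MYC, and 8.23, 8.65 and 14.0 in AEG1_MYC mice. Its residual spread within genotypes, 0.460 on the log2 scale, was larger than its c-Myc difference of 0.02 ± 0.24, and the groups overlapped.

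**Figure D3:**
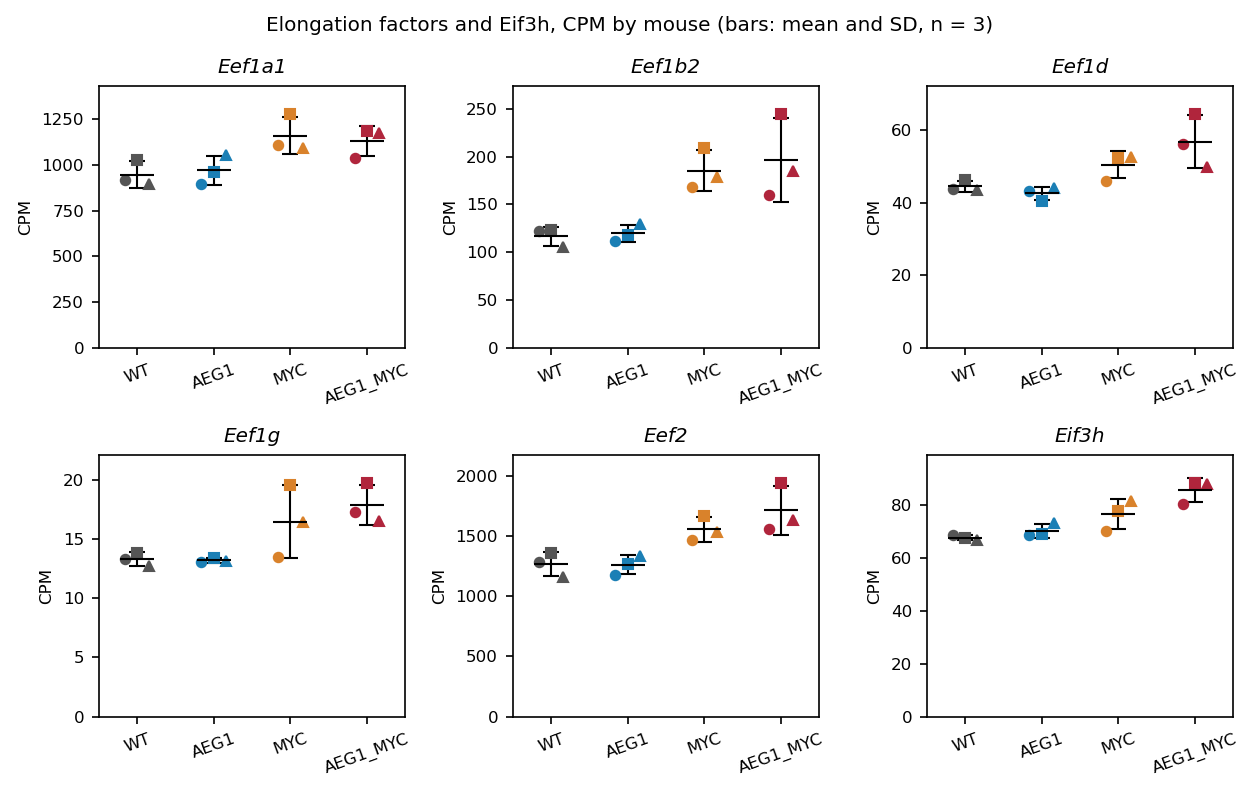
CPM of 5 elongation factor genes and Eif3h in each mouse, with the mean and SD of the 3 mice of each genotype. Circles, squares and triangles are replicates 1, 2 and 3. For Eef1b2 and Eef2 all MYC and AEG1_MYC mice lie above all WT and AEG1 mice (159.9 against 129 CPM and 1466 against 1362 CPM at the closest).

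Among the eIF3 subunits, 4 of 13 reached an unadjusted p under 0.05 in c-Myc carriers, all higher (6.53% of all genes were higher). A positive difference was found for 11 of 13 (50.6% of all genes), with a median of 0.12 against 0.003 over all genes. Eif3h was among the members with the least spread within genotypes, 0.073 on the log2 scale. It stood at 68.6, 67.3 and 66.8 CPM in WT, 68.6, 68.8 and 73.1 in AEG1, 70.2, 77.7 and 81.4 in MYC, and 80.2, 88.2 and 88.0 in AEG1_MYC mice. All AEG1_MYC mice were above all WT and AEG1 mice, a split whose share over all genes was not counted. The log2 difference from WT was 0.34 ± 0.08 (edgeR adjusted p = 0.112). Eif3e, another subunit of the complex, stood at 43.9 to 55.4 CPM in non-carriers and 54.4 to 63.7 CPM in carriers. Eif3f stood at 72.2 to 77.4 and 76.6 to 90.7 CPM in the same order, and Eif3k at 29.6 to 38.1 and 32.7 to 45.4 CPM. These 3 overlapped between the sides, with log2 differences of 0.25 ± 0.08, 0.17 ± 0.06 and 0.21 ± 0.09 (edgeR adjusted p = 0.261, 0.359 and 0.404). Eif3c, a core subunit, had the lowest p of the members that were lower in AEG1_MYC than in WT mice. It stood at 157, 163 and 140.2 CPM in WT and 139, 101 and 139 CPM in AEG1_MYC mice, a log2 difference of -0.28 ± 0.12 (edgeR adjusted p = 0.275). Without AEG1_MYC replicate 2 this was -0.14, and without replicates 1 and 2 also -0.14. Eif3j stood at 2.14 to 9.22 CPM, with a spread of 0.535 on the log2 scale.

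The members known from textbooks as TOP mRNAs were then set beside the rest. That list was drawn up after values had been seen, so its counts are a description. It held Eef1a1, Eef1b2, Eef1d, Eef1g, Eef2, Eif3e, Eif3f, Eif3h and Eif4b among the tested members. In AEG1 mice 4 of the 9 were above WT by the fitted log2 difference, with a median of -0.01. In MYC mice 9 of 9 were above WT, with a median of 0.22 against 0.03 for the other 54 members. In AEG1_MYC against AEG1, which shares no libraries with MYC against WT, 9 of 9 were positive, with a median of 0.33 against 0.05 for the other 54. Because the list was drawn up after values had been seen, this is no independent repeat. Each of the 6 carrier libraries had all 9 above the WT mean, and the non-carriers had between 0 and 8. Of the other 54 members, 19 were positive in both of these comparisons (35.2%), against 26.1% of all genes tested. Over all 63 members 28 were positive in both (44.4%). Eif4b, the helicase cofactor of this list, stood at 311, 326 and 291 CPM in WT, 301, 271 and 341 in AEG1, 330.2, 335 and 347 in MYC and 342, 413 and 392 in AEG1_MYC mice.

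**Figure D4:**
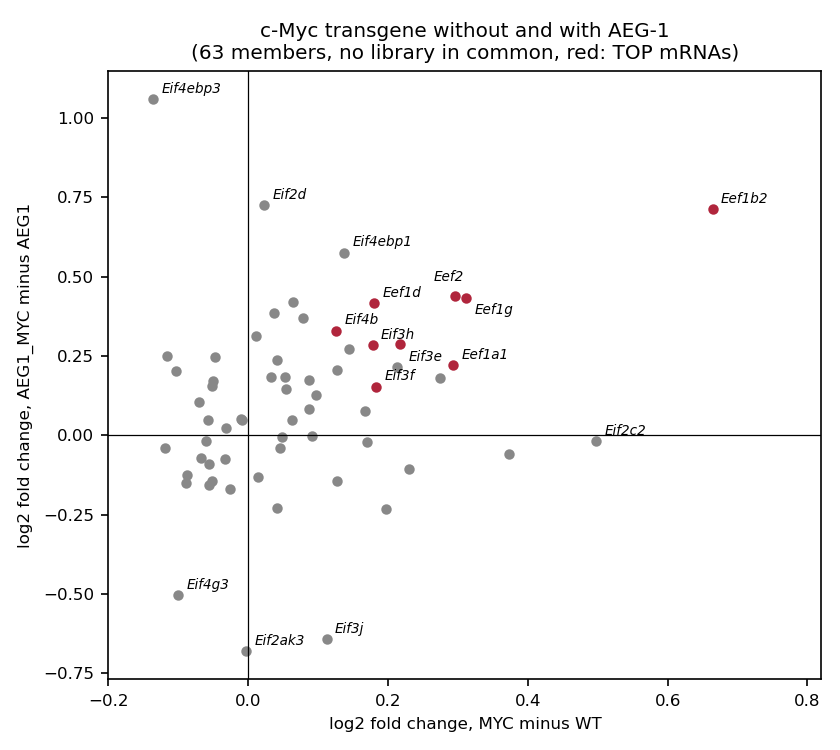
Log2 difference of each member for the c-Myc transgene without AEG-1 (MYC minus WT) and with it (AEG1_MYC minus AEG1), measured in libraries with none in common. The 9 red TOP members all lie in the upper right, Eef1b2 farthest at 0.66 and 0.71, while the other 54 members scatter around both axes. The TOP list was drawn up after values had been seen.

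With either transgene alone, no member passed the threshold against WT. In AEG1 against WT 0 of 63 members passed the adjusted threshold in edgeR, DESeq2 or limma-voom, as did 0% of all genes in edgeR, and 1 member was higher and 0 lower at an unadjusted p under 0.05 (1.99% and 1.93% of all genes). In that comparison 1 member stood higher and 3 lower with no overlap between the groups (5.16% and 5.53% of all genes). The 3 were Eif2b2, Eif2b5 and Eif3k. In MYC against WT the adjusted count was also 0 with all these tools, and 0% of all genes passed in edgeR. Myc itself, at a log2 difference of 3.45, had an edgeR adjusted p of 0.266 there, the lowest over all genes. In MYC against WT 4 members were higher and 0 lower at an unadjusted p under 0.05 (1.84% and 1.63% of all genes). These 4 were Eef1b2, Eif2c2, Eef1g and Eef1a1. In that comparison 8 members stood higher with no overlap between the groups (5.47% of all genes), and 0 lower (6.09%). With both transgenes 0 members passed in AEG1_MYC against WT (0.263% of all genes), while 12 were higher and 1 lower at an unadjusted p under 0.05 (9.66% and 7.56% of all genes). Groups did not overlap for 15 members that stood higher and 2 that stood lower (9.81% and 9.65% of all genes). DESeq2 passed 6 members there, Eef1b2, Eef1d, Eef2, Eif2c2, Eif3h and Eif4ebp1, among 652 genes (4.77%). Without AEG1_MYC replicate 1 edgeR passed Eef1b2 among 40 genes (0.288%). Without replicate 3 it passed Eef1b2, Eef1d and Eif4ebp3 as higher and Eif2c1 as lower, among 687 genes (4.95%). Against AEG1, AEG1_MYC mice had 0 members past the adjusted threshold (0.322% of all genes) and 13 higher and 0 lower at an unadjusted p under 0.05 (10.1% and 7.33% of all genes). There 14 stood higher and 2 lower with no overlap (9.6% and 8.24% of all genes). DESeq2 passed Eef1b2, Eef1d, Eef2, Eif2d, Eif3h and Eif4ebp1 in that comparison, among 700 genes (5.13%). There edgeR passed Eef1b2 without AEG1_MYC replicate 1, among 67 genes (0.482%), and Eef1b2, Eef1d and Eif2d without replicate 3, among 630 genes (4.54%). Against MYC, AEG1_MYC mice had 0 members past the adjusted threshold (0.205% of all genes), 3 higher and 1 lower with no overlap (9.64% and 8.85% of all genes). DESeq2 passed Eif4ebp1 there, among 446 genes (3.27%). Without AEG1_MYC replicate 3 edgeR passed Eif4ebp3 and Eif2c1, among 450 genes (3.24%). These comparisons share their WT or AEG1_MYC libraries and are not independent of each other.

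The inhibitors of eIF4E differed from each other. Eif4ebp1, which sequesters eIF4E until mTORC1 phosphorylates it, stood at 28.0, 24.9 and 28.7 CPM in WT and 29.0, 24.0 and 30.0 in AEG1 mice. It stood at 26.8, 27.7 and 35.4 CPM in MYC and 37.7, 44.2 and 41.9 in AEG1_MYC mice. The AEG1_MYC mice were above all 9 others, and the share of all genes that split in this way was not counted. Eif4ebp1 had a log2 difference from WT of 0.60 ± 0.13 (edgeR adjusted p = 0.0959) and from MYC of 0.46 ± 0.13 (adjusted p = 0.191). It had the lowest p of all members against MYC, where 4 members were higher and 1 lower at an unadjusted p under 0.05 (8.86% and 6.31% of all genes). DESeq2 gave an adjusted p of 0.0036 and 0.0492 for these differences. Without AEG1_MYC replicates 1 and 2 the difference from WT was 0.63. Eif4ebp2 stood at 124 to 155 CPM throughout, with overlapping groups. Eif4ebp3 stood at 12.3, 13.2 and 9.65 CPM in WT, 10.5, 19.8 and 13.7 in AEG1, 8.74, 10.6 and 12.6 in MYC, and 23.4, 58.6 and 9.44 in AEG1_MYC mice. Its log2 difference of AEG1_MYC from WT, 1.38 ± 0.52 (edgeR adjusted p = 0.216), came from replicates 1 and 2. Without these the value was -0.30, and without replicate 3 it was 1.83 (adjusted p = 0.0295). In the reference annotation 67.34% of its exon bases overlap another gene on the same strand, so its reads may not all be its own.

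**Figure D5:**
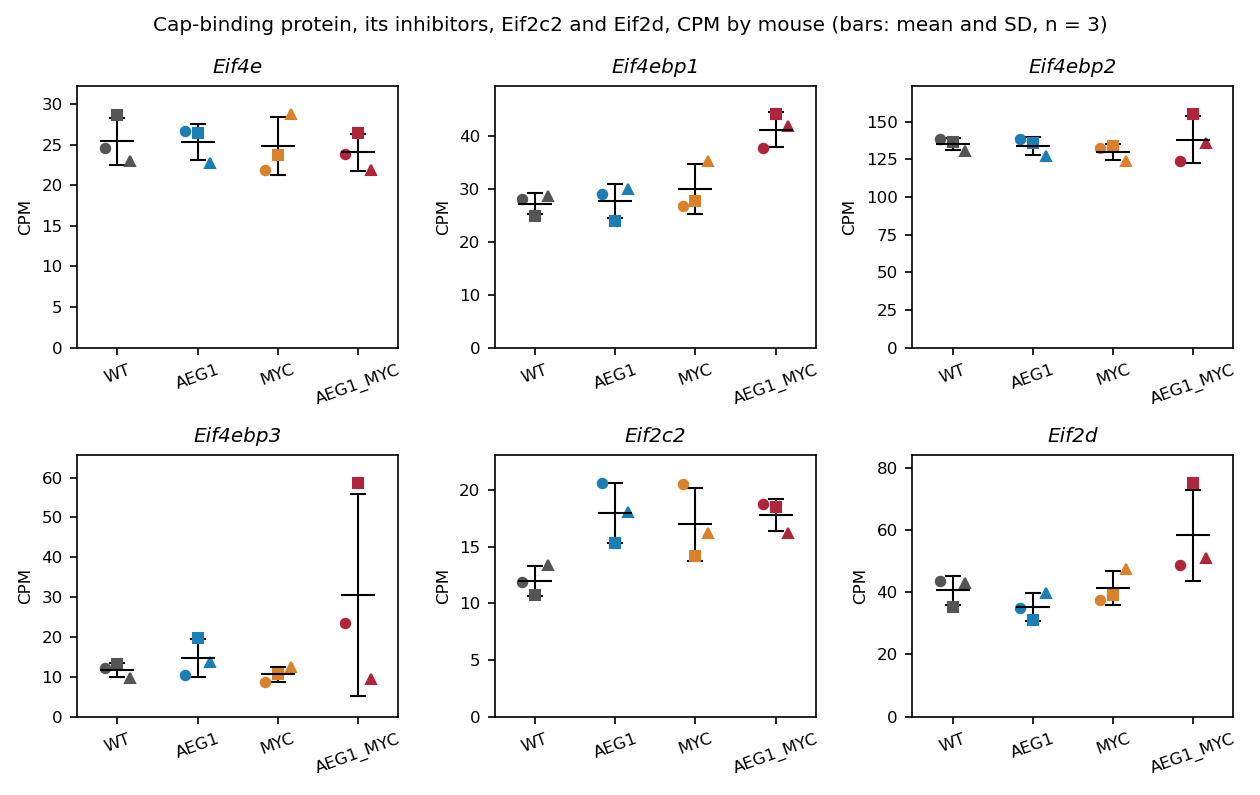
CPM of Eif4e, the 3 eIF4E-binding protein genes, Eif2c2 and Eif2d in each mouse, with the mean and SD of the 3 mice of each genotype. Circles, squares and triangles are replicates 1, 2 and 3. Eif4ebp1 is highest in all AEG1_MYC mice (37.7 to 44.2 CPM), Eif4ebp3 in AEG1_MYC replicate 2 (58.6 CPM), and Eif2c2 is lowest in the WT mice (10.8 to 13.4 CPM).

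The cap-binding factors and their partners showed no such order. Eif4e stood at 24.6, 28.6 and 23.0 CPM in WT and 23.8, 26.4 and 21.9 in AEG1_MYC mice, with 21.9 to 28.8 CPM over all genotypes. Its relatives Eif4e2, a translational repressor, and Eif4e3 ran from 48.9 to 66.1 and from 4.65 to 10.5 CPM. The scaffold Eif4g1 stood at 663 to 789 CPM in 11 libraries and 587 CPM in AEG1_MYC replicate 2. Eif4g2, which acts without eIF4E, stood at 613 to 804 CPM and was lowest in the same library. Eif4g3 stood at 129.9, 52.8 and 114 CPM in AEG1_MYC mice and 100 to 176 CPM elsewhere. The helicases Eif4a1 and Eif4a2 ran from 25.8 to 44.6 and from 217 to 375 CPM, with the highest value of each in AEG1_MYC replicate 2. Eif4a1 stood higher in AEG1_MYC than in AEG1 mice, at an unadjusted p under 0.05 by edgeR (10.1% of all genes). The groups just failed to overlap, at 30.56 against 30.38 CPM. Its log2 difference there was 0.42, and 0.09 without AEG1_MYC replicates 1 and 2. Eif4a3, which works in the exon junction complex and not in initiation, stood at 13.9 to 21.1 CPM. AEG1_MYC replicate 2 held the highest value of 24 of the 63 tested members and the lowest of 12.

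Among the genes that bring in the initiator tRNA, Eif2d gave the lowest unadjusted p over the 8 comparisons by edgeR. Eif2d, which delivers initiator tRNA in a way that does not need eIF2 and also acts in ribosome recycling, stood at 43.5, 35.3 and 43.0 CPM in WT and 35.0, 31.0 and 39.8 in AEG1 mice. It stood at 37.3, 39.0 and 47.5 CPM in MYC and 48.8, 75.1 and 51.1 in AEG1_MYC mice. All AEG1_MYC mice were above the 9 others, a split whose share over all genes was not counted. The log2 difference from AEG1 was 0.72 ± 0.18 (edgeR adjusted p = 0.104). Eif2d gave the lowest p of all members for the interaction, the departure from adding the log2 effects of the transgenes, at 0.70 ± 0.25 (edgeR adjusted p = 0.481). In the interaction 0 of 63 members passed (0.0219% of all genes) with edgeR, DESeq2 or limma-voom, and 3 had an unadjusted p under 0.05 (9.25% of all genes). The other two were Eif4ebp1 at 0.44 ± 0.19 and Eif2c2 at -0.52 ± 0.23 (edgeR adjusted p = 0.519 and 0.527). Eif2a, which can also bring initiator tRNA, stood at 36.8 to 51.4 CPM in non-carriers and 47.4 to 61.4 CPM in c-Myc carriers (log2 difference 0.22 ± 0.08, edgeR adjusted p = 0.365). The eIF2 subunits Eif2s1, Eif2s2 and Eif2s3x had c-Myc differences of 0.06 each. Eif2b2, an eIF2B subunit, stood at 19.1, 19.3 and 18.2 CPM in WT and 18.2, 14.7 and 15.2 in AEG1 mice (log2 difference -0.24 ± 0.11, edgeR adjusted p = 0.9997). All 5 eIF2B subunits had negative differences between AEG1 and WT, down to -0.34 ± 0.25 for Eif2b4 (edgeR adjusted p = 0.9997). So did 41 of all 63 members, while without WT replicate 2 a positive difference was found for 33 members. With all libraries Eif2b2 and Eif2b5 (-0.08 ± 0.08) were lower in AEG1 than in WT with no overlap between the groups. For Eif2b2 the closest values were 18.19 CPM in WT and 18.15 in AEG1. Of the 5 eIF2B subunits none reached an unadjusted p under 0.05 in AEG1, MYC or AEG1_MYC against WT. Eif2b5, the catalytic subunit, had the least spread of all tested members, with 40.3 to 46.1 CPM in the 12 libraries.

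None of the 4 eIF2 kinases reached an unadjusted p under 0.05 in AEG1, MYC or AEG1_MYC against WT. Eif2ak1, the haem-regulated kinase, stood at 46.8 to 64.7 CPM. Eif2ak2, the kinase PKR that senses double-stranded RNA, stood at 50.4, 30.0 and 40.9 CPM in MYC and 28.5, 22.9 and 34.3 in AEG1_MYC mice. That log2 difference was -0.50 ± 0.20 (edgeR adjusted p = 0.285), with overlapping groups. It was -0.23 without AEG1_MYC replicates 1 and 2 and -0.31 without MYC replicate 1. Eif2ak3, the kinase PERK of the endoplasmic reticulum, ran from 23.9 to 52.9 CPM and reached its highest value in a WT mouse. Eif2ak4, the amino acid sensor GCN2, stood at 16.7 to 23.4 CPM.

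Of the factors that select the start codon, Eif1, Eif1a, Eif1ad, Eif1ax, Eif1b and Eif5, none of 6 reached an unadjusted p under 0.05 in c-Myc carriers or in any genotype against WT. Eif1, which guards against wrong start codons, stood at 45.4, 43.6 and 52.2 CPM in MYC and 49.9, 58.5 and 57.8 in AEG1_MYC mice (log2 difference 0.24 ± 0.09, edgeR adjusted p = 0.281). Eif5a, the hypusine-bearing factor that helps ribosomes through difficult sequences, stood at 183, 195 and 200.1 CPM in WT, 193, 174 and 206 in AEG1, 195, 239.9 and 235 in MYC and 213, 226 and 225 in AEG1_MYC mice. One MYC mouse lay inside the non-carrier range, and the c-Myc difference was 0.21 ± 0.08 (edgeR adjusted p = 0.356). Its paralogue Eif5a2 was near 0, at 0.427 to 1.16 CPM. Eif6, which keeps the large ribosomal subunit from joining too early, stood at 41.1, 46.4 and 39.3 CPM in WT, 41.0, 40.9 and 46.5 in AEG1, 43.4, 48.1 and 48.6 in MYC and 54.8, 53.8 and 46.4 in AEG1_MYC mice. The sides overlapped, with a c-Myc difference of 0.21 ± 0.07 (edgeR adjusted p = 0.345). Without AEG1_MYC replicates 1 and 2 it was 0.13, at an unadjusted p of 0.132 by edgeR. Eif5b, which joins the subunits, stood at 94.0 to 121 CPM.

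The 4 Eif2c symbols are older names of the Argonautes Ago1 to Ago4, which bind small RNAs and are not initiation factors. Eif2c2, or Ago2, the slicing Argonaute, stood at 11.9, 10.8 and 13.4 CPM in WT, 20.6, 15.3 and 18.1 in AEG1, 20.5, 14.2 and 16.2 in MYC, and 18.8, 18.5 and 16.2 in AEG1_MYC mice. All 9 transgenic mice were above all WT mice, and how many of all genes split in this way was not counted. The log2 differences from WT were 0.59 ± 0.16, 0.50 ± 0.16 and 0.57 ± 0.16 in that order, with edgeR adjusted p of 0.9997, 0.999 and 0.146. These 3 differences share the WT libraries. With DESeq2 the adjusted p for AEG1_MYC was 0.0389. In AEG1 carriers against non-carriers, where 0 of 63 members (0.0512% of all genes) passed with edgeR, DESeq2 or limma-voom, Eif2c2 had the lowest p of 4 members at an unadjusted p under 0.05 (9.43% of all genes). Its averaged log2 difference there, 0.33, came mostly from AEG1 against WT. The means of MYC and AEG1_MYC mice were close, at 17.0 ± 3.24 and 17.8 ± 1.40 CPM (SD, n = 3). As background, AEG-1 has been described as a component of the RNA-induced silencing complex, in which Ago2 is the catalytic protein. A link of this to the Eif2c2 levels was not tested. Eif2c1 stood at 47.2, 37.6 and 62.1 CPM in AEG1_MYC mice and 56.4 to 64.2 CPM elsewhere. Eif2c3 and Eif2c4 ran from 1.53 to 3.82 and from 6.52 to 10.3 CPM, with overlapping groups.

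Of the neighbouring genes of translation that are no members, 0 of 61 tested genes on 7 lists passed in any comparison by edgeR. Of the 8 genes of poly(A) tail binding, 2 were higher and 0 lower at an unadjusted p under 0.05 in c-Myc carriers (6.53% and 4.55% of all genes). Pabpc1, the main poly(A)-binding protein and itself a TOP mRNA, stood at 165, 165 and 144 CPM in WT, 172, 154 and 173 in AEG1, 194, 209 and 203 in MYC, and 205, 256 and 222 in AEG1_MYC mice. Carriers and non-carriers did not overlap, and the log2 difference was 0.41 ± 0.08 (edgeR adjusted p = 0.0822). Gspt2, a release factor subunit, stood at 0.061 to 0.669 CPM in non-carriers, 0.345, 5.6 and 1.61 in MYC, and 4.82, 9.39 and 2.66 CPM in AEG1_MYC mice. Its log2 difference of AEG1_MYC from WT was 3.77 ± 1.003 (edgeR adjusted p = 0.135) at low read numbers. Ppp1r15b, a subunit of the eIF2 phosphatase, stood at 142, 171 and 156 CPM in WT, 215, 196 and 187 in AEG1, 200.02, 209 and 188 in MYC, and 207, 149 and 178 in AEG1_MYC mice. Its log2 differences from WT were 0.35 ± 0.13, 0.35 ± 0.13 and 0.19 ± 0.13 in that order (edgeR adjusted p = 0.9997, 0.999 and 0.475). Both single-transgene groups were above WT without overlap, and the AEG1_MYC mice overlapped WT. The 16 genes of mTORC1 and S6 kinase had 5 positive and 11 negative differences in AEG1_MYC against WT, with a median of -0.10. At an unadjusted p under 0.05, 1 was higher and 3 were lower (9.66% and 7.56% of all genes). The median describes the list and does not measure mTORC1 activity. The 9 mitochondrial translation factors had 5 positive and 4 negative differences in AEG1_MYC against WT, with 0 higher and 2 lower at that level, beside the same shares of all genes.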

How the data were processed

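Total RNA of whole liver from 12 mice was made into Illumina TruSeq RNA libraries, per the labels' protocols. For each library the authors deposited raw counts of 22609 genes, followed by 5 summary lines that were left out here. CASAVA 1.8.2 made the base calls, TopHat2 2.0.7 aligned reads to mm9 and HTSeq counted them, per the submitters' processing notes. The gene annotation and strand setting are not given in the sources used here. Reads of a gene and an overlapping or antisense gene cannot be told apart. Alignments at several places were 46.5% to 58.0% of all values and no-feature reads 11.5% to 15.5% of uniquely aligned reads.

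In R 4.3.3, edgeR 4.0.16 scaled libraries by TMM (factors 0.914 to 1.19), kept 13684 genes by filterByExpr and fitted 1 coefficient per genotype over all 12 libraries. The robust quasi-likelihood F test was two-sided, with Benjamini-Hochberg adjustment over all genes tested and members were called at adjusted p under 0.05. Dividing the absolute log2 difference by the root of F gave its SE. The comparisons were AEG1, MYC and AEG1_MYC against WT, AEG1_MYC against AEG1 and against MYC, the interaction, and the averages over carriers of each transgene. Alternatives were RLE and upper-quartile scaling, other filters, no robust step, DESeq2 1.42.0, limma-voom (limma 3.58.1) with quality weights, the compared groups alone, each library left out, and AEG1_MYC replicates 1 and 2 left out together. Code was tested on simulated data.

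The labels number mice without tying them to litters, so p-values measure the spread between these mice. Replicates are numbered in accession order. The members and lists were chosen with earlier results of these data known. Values per mouse, or a range where genotypes overlapped, are given for the 4 members with the lowest p in each comparison, the 5 most abundant, paralogue groups, eIF2 kinases, Eif6, Eef2 and Eef2k, and ranges for the rest. Further members were given after seeing their values. Word sharing, transcript lengths and overlaps come from GENCODE M21 on GRCm38, a later build than the one of the counts, and serve only as a description.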

Additional observations from a re-analysis of the deposited data

Results flagged for a closer look

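Within groups of 6 mice with or without a transgene, a member's highest or lowest mouse was marked where its gap to the next, as a share of the group's range, exceeded Dixon's critical value. Over all tested members 21 of 252 groups were marked (8.33%), 10 of them by AEG1_MYC replicate 2. Each mouse entered 2 groups per member, and Eif4a2, Eif4ebp3 and Eif3c of that replicate were each marked in both. Chance marks about 1 in 20 in a single sample of like mice. The groups here overlapped and each held 2 genotypes, so that rate is no measure for them. AEG1_MYC replicate 2 stood at 375 CPM for Eif4a2, against 225 to 254 in the other c-Myc carriers and 217 to 259 in the other AEG-1 carriers. It stood at 58.6 CPM for Eif4ebp3, against 8.74 to 23.4 and 9.44 to 23.4 in the same order. It stood at 75.1 CPM for Eif2d, against 37.3 to 51.1 in the other c-Myc carriers, and at 66.1 CPM for Eif4e2, against 49.2 to 54.1 in the other AEG-1 carriers. For Eif3c it was low, at 100.6 CPM against 138.6 to 148 in the other c-Myc carriers and 138 to 146 in the other AEG-1 carriers. Against the other AEG-1 carriers it was high for Eif3a, at 303 CPM (others 227 to 253.4), and Eif3d, at 93.1 CPM (others 61.2 to 69.3). AEG1_MYC replicate 1 stood at 1.16 CPM for Eif5a2, against 0.514 to 0.691 in the other c-Myc carriers. MYC replicate 1 stood at 45.7 CPM for Eif2ak3, against 23.9 to 31.4 in the other c-Myc carriers. MYC replicate 3 stood at 35.4 CPM for Eif4ebp1, against 24.9 to 28.7 in the other mice without AEG-1. Among mice without c-Myc, AEG1 replicate 3 stood at 73.1 CPM for Eif3h (others 66.8 to 68.8) and 10.5 CPM for Eif4e3 (others 5.6 to 7.26). In the same group AEG1 replicate 2 stood at 176 CPM for Eif4g3 (others 116 to 131) and WT replicate 2 at 21.1 CPM for Eif4a3 (others 13.9 to 16.5).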

How the results depend on the processing

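The single genes followed here were those at an unadjusted p under 0.05 by edgeR in the main setting, and none passed the adjusted threshold there. Keeping the side of the threshold thus meant staying uncalled, and no call could be lost. Of 1196 values of single genes under 21 alternative settings, 1160 kept their direction and side of the threshold, 34 moved past it and 2 reversed. The 2 were Eif4ebp3 without AEG1_MYC replicates 1 and 2 together, where AEG1_MYC differed from WT by -0.30 (adjusted p = 0.922) and from MYC by -0.17 (adjusted p = 0.932). That setting leaves AEG1_MYC replicate 3 alone, whose variation is then taken from the other genotypes. The number of members past the threshold was 0 throughout in edgeR with all libraries, except for the filter of CPM of at least 1, which gave 1 in c-Myc carriers (21 genes in all). DESeq2 gave 6 in AEG1_MYC against WT, 6 against AEG1, 1 against MYC and 6 in c-Myc carriers, where it called 652, 700, 446 and 305 genes in all, and limma-voom gave 1 of 39 in c-Myc carriers. Leaving out each library in turn gave 0 to 4 members in AEG1_MYC against WT, 0 to 3 against AEG1, 0 to 2 against MYC and 0 to 2 in c-Myc carriers, the highest each time without AEG1_MYC replicate 3, where 687, 630, 450 and 138 genes were called in all. In the other 4 comparisons it stayed at 0 under every setting run. The median log2 difference of the members in AEG1_MYC against WT was 0.03, with 0.014 to 0.11 when single libraries were left out, and in c-Myc carriers 0.07, with 0.061 to 0.124. The cause of these shifts was not tested. No paired analysis was possible because the labels give mouse numbers that no 2 genotypes share, and the replicate numbers used here only follow accession order. Depth limits Eef1a2, Eif5a2, Eif2c3 and Eif3j, the members of few reads.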
